A study of Homo sapiens and Mus musculus with 29 samples.

Results

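Claudins are the membrane proteins that form the strands of tight junctions, the seals between neighboring epithelial cells. Described here are the mRNA levels of 10 claudin genes, CLDN1, CLDN2, CLDN3, CLDN4, CLDN7, CLDN10, CLDN12, CLDN15, CLDN18 and CLDN23, of 24 claudin genes found by symbol among the 58719 genes of the human table, and of their 10 mouse orthologs among the 54446 genes of the mouse table. The members were chosen by symbol with measured values in view, since CLDN2 and CLDN18 had been seen to move in opposite directions between the tumor groups. The values of CLDN2 and CLDN18 in these groups are therefore a description, and where these 2 genes are counted among genes that passed a threshold, nothing is read from it. The other 8 are given with their tests, although they too were chosen with results known.

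RNA-seq was performed on 21 tumors and metastases of HPAF-II, an established human pancreatic ductal adenocarcinoma (PDAC) cell line of the classical subtype, grown in NSG mice, which lack functional lymphocytes, and on 8 libraries of mouse KPC cell lines. The HPAF-II cells were injected into the pancreas, and all groups carried CRISPR-treated cells. They were 3 control tumors (labeled Cas-9-EV), 4 tumors and 2 metastases labeled HNF4G knockout with EV (HNF4G-KO), 3 tumors labeled Cas-9 with FOXA1 overexpression (FOXA1-OE), and 5 tumors and 4 metastases labeled with both (HNF4G-KO+FOXA1-OE). HNF4G-KO cells were a pool of single-cell clones with frameshift mutations, and FOXA1 was delivered with lentivirus. The methods of the study call these mutations heterozygotic and also call the clones knockouts. The KPC libraries were 4 of a line made from a pancreatic tumor and 4 of a line made from the matched liver metastasis of the same mouse model, all labeled wild-type and untreated. Ages of the mice at collection are not given in the sources used here, and tumors were taken at the humane endpoint.

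In epithelia, claudins are commonly divided by what they do to the space between cells. CLDN2, CLDN10 and CLDN15 form channels that let small ions or water pass, while CLDN1, CLDN3, CLDN4, CLDN7 and CLDN18 are mostly known for sealing it. CLDN18 is the claudin of the stomach lining, is absent from normal pancreatic ducts and is often expressed in pancreatic cancer, where it is a drug target. CLDN12 and CLDN23 are less well understood.

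Values are RPKM, reads per kilobase of gene and per M counted reads, which allow levels of different genes to be compared per length. The steps between low values gave a depth of 33.1 to 69.6 M reads per HPAF-II library (median 54.5 M) and 30.1 to 44.4 M per KPC library (median 36.2 M). In HNF4G-KO tumors the transcript of the targeted gene was higher than in control tumors. HNF4G was at 2.48 to 3.47 RPKM in control tumors and at 5.72 to 8.42 RPKM in HNF4G-KO tumors. It was at 3.04, 2.26 and 0.495 RPKM in FOXA1-OE tumors 1 to 3. HNF4G-KO+FOXA1-OE tumors 1 to 5 had 7.09, 6.16, 6.67, 3.94 and 1.69 RPKM. The study reports that the frameshift mutations of the clones were checked by Sanger sequencing. The RNA level gives no measure of whether protein was made. HNF4G-KO is therefore used below as the name of a label. FOXA1 was at 0.519 to 0.932 RPKM in control tumors and at 4.65 to 23.1 RPKM in HNF4G-KO+FOXA1-OE tumors, but FOXA1-OE tumor 3 was at 0.763 RPKM and 3 of the 4 HNF4G-KO+FOXA1-OE metastases were at 0.535 to 1.55 RPKM. The summed RPKM of 5 epithelial markers was 2685 to 5088 in every HPAF-II library. The summed RPKM of 7 host stroma markers was 35.5 to 388, and that of 7 host acinar markers was 348 in control tumor 2 and at most 31.0 elsewhere. Markers of endothelium summed to at most 1.80 RPKM and those of blood to at most 9.94 RPKM. Adipose markers summed to 11.3 to 17.0 RPKM in control tumors. They summed to 17.8 to 53.0 RPKM in HNF4G-KO+FOXA1-OE tumors and to 24.4 to 54.6 RPKM in the metastases of that label. Most of this was CIDEC (11.1 to 54.1 RPKM), with PLIN1 at 0.618 RPKM or less and ADIPOQ at 0.0108 RPKM or less everywhere. Mesothelial markers summed to 78.2 to 356 RPKM, most of it MSLN (56.5 to 298 RPKM), with LRRN4 at 0.179 RPKM or less. Mouse reads can be counted for similar human genes, and the part of host cells in the claudin values was not tested.

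CLDN2 (ENSG00000165376.10) lies on the plus strand of chromosome X, from 106900164 to 106930861 in GENCODE release 44 (GRCh38), and CLDN18 (ENSG00000066405.12) on the plus strand of chromosome 3, from 137998735 to 138033655. Each has 2 start sites in the RefSeq promoter table, and as the RPKM values are per gene they do not tell the starts apart. For CLDN18 these starts separate the known lung and stomach isoforms. The sequences before these starts are shown because these are the 2 members whose levels differed most between the tumor groups, with both FOXA1 and HNF4G being DNA-binding proteins. They come from RefSeq (GRCh38.p14), plus strand, 5′ to 3′, with capitals marking a forkhead (FOXA) motif:

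CLDN2 promoter 1, chrX:106899914-106900163: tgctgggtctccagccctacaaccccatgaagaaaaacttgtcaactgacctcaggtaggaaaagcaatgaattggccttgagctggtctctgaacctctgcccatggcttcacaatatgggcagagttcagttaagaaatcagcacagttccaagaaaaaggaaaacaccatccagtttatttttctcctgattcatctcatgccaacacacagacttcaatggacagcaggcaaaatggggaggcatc

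CLDN2 promoter 2, chrX:106918110-106918359: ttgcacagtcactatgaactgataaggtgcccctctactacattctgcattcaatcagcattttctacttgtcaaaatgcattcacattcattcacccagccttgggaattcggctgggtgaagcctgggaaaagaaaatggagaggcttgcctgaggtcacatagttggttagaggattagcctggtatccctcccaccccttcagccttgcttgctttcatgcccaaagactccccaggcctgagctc

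CLDN18 promoter 1, chr3:137998566-137998734: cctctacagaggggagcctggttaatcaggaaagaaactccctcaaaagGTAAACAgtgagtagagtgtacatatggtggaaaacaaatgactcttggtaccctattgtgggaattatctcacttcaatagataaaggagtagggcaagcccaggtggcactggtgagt

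CLDN18 promoter 2, chr3:138009915-138010164: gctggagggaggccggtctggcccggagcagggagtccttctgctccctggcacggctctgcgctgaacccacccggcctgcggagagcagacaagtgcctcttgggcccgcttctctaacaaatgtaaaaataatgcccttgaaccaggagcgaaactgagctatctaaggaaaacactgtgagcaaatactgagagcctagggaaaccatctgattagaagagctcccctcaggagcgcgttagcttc

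The windows span the 250 bases before each start, except that the first CLDN18 window is printed without its last part, which lies in the first exon of the GENCODE gene. The first windows lie upstream of their genes, and the second windows lie within introns. Both strands of all 250 bases were searched for an HNF4 motif (CAAAGTCCA), a forkhead motif (TGTTTAC), the palindromic HNF1 motif and a TATA box (TATAAA). The only match in the 4 windows was the forkhead motif, as GTAAACA on the printed strand, 201 to 195 bases before the first CLDN18 start. Of 35116 promoters in the table, 2.98% held this motif, 0.325% the HNF4 motif, 0.0057% the HNF1 motif and 10.7% the TATA box. A match in these letters is a description and not a binding site.

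CLDN2, which forms a channel for sodium and water, was the member with the widest range among abundant claudins. It was at 129, 124 and 90.0 RPKM in control tumors and at 15.9, 18.1, 12.1 and 12.3 RPKM in HNF4G-KO tumors. The 3 FOXA1-OE tumors had 119, 161 and 65.8 RPKM. The 5 HNF4G-KO+FOXA1-OE tumors had 4.93, 9.0, 5.02, 52.2 and 10.4 RPKM. Both groups labeled HNF4G-KO lay below both groups without this label, with no overlap, and HNF4G-KO+FOXA1-OE tumor 4 was the nearest, at 52.2 RPKM against 65.8 RPKM in FOXA1-OE tumor 3. The mean was 7.81-fold higher in control than in HNF4G-KO tumors (114 ± 21, SD, n = 3, against 14.6 ± 2.94, SD, n = 4), and 6.20-fold higher in FOXA1-OE tumors than in HNF4G-KO+FOXA1-OE tumors (115 ± 47.8, SD, n = 3, against 18.6 ± 22.5, SD, n = 4 mice, tumors 2 and 3 being averaged as they came from 1 mouse). Without tumor 4 this ratio was 15.5. MORC4, on the other strand, spans the CLDN2 gene and was at 7.18 to 32.2 RPKM. The library kit kept strand, but whether the counting used it is not given in the sources used here, so the share of MORC4 reads in the lower CLDN2 values was not tested.

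CLDN18 showed the opposite order. It was at 0.172, 0.205 and 0.0209 RPKM in control tumors and at 0.106, 0.141 and 0.235 RPKM in FOXA1-OE tumors. In HNF4G-KO tumors it was at 15.3, 12.9, 5.61 and 6.04 RPKM. The 5 HNF4G-KO+FOXA1-OE tumors had 2.89, 2.76, 0.108, 2.41 and 0.624 RPKM. HNF4G-KO tumors lay above all other primary tumors, with 1333 to 3146 reads recovered per library, where control tumors had 4 to 38 and FOXA1-OE tumors 18 to 36. HNF4G-KO+FOXA1-OE tumors lay between, although tumor 3 had 24 reads and fell within the range of tumors without the HNF4G-KO label. Tumors 2 and 3 of this group came from the same mouse and differed from 2.76 to 0.108 RPKM. Averaged on the log2 scale as 1 mouse, as in the fits, they lay above every FOXA1-OE tumor. The mean was 75.1-fold higher in HNF4G-KO than in control tumors (9.98 ± 4.90, SD, n = 4, against 0.133 ± 0.0984, SD, n = 3), a ratio that rests on few control reads. On the log2(RPKM + 1) scale, which understates changes of low genes, the difference was 3.17, and 5.41 with a pseudocount of 0.1. In bulk tumors, fewer cells with a transcript and less RNA per cell cannot be told apart.

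**Figure D1:**
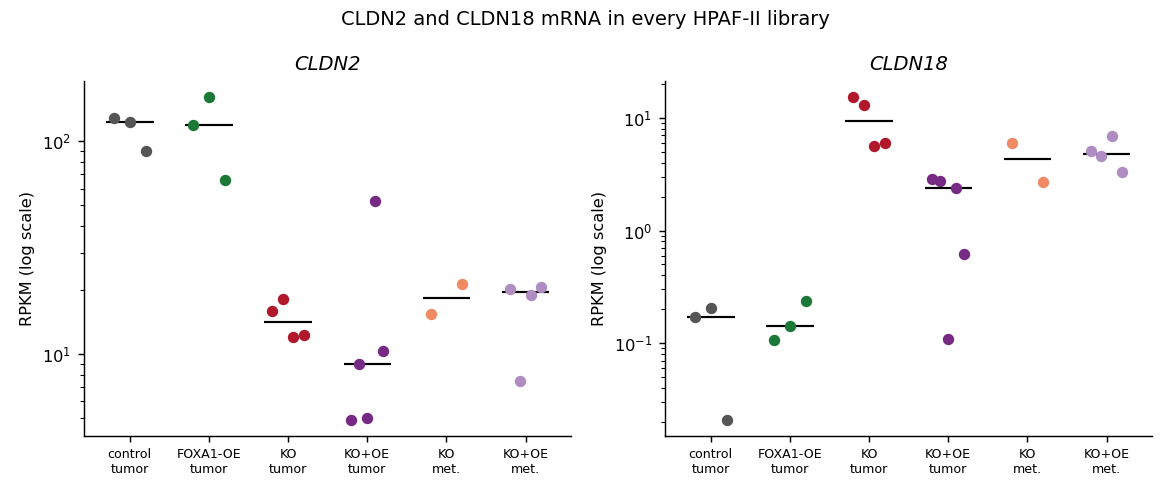
CLDN2 (left) and CLDN18 (right) mRNA as RPKM on a log scale, 1 point per HPAF-II library, with a line at the median of each group (KO, HNF4G-KO; OE, FOXA1-OE; met., metastasis). CLDN2 is at 65.8 RPKM or more in control and FOXA1-OE tumors and at 52.2 RPKM or less in all others, while CLDN18 is at 0.235 RPKM or less in control and FOXA1-OE tumors and at 5.61 RPKM or more in HNF4G-KO tumors.

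Levels of CLDN18 were set beside the FOXA1 level of the same library, given here as values with no test. In HNF4G-KO+FOXA1-OE tumors 1 to 5, FOXA1 was at 12, 5.76, 23.1, 6.50 and 4.65 RPKM. The tumor with the most FOXA1 was thus the one with the least CLDN18, while the tumor with the least FOXA1 had the second lowest CLDN18. In the 4 metastases of this group, FOXA1 was at 0.535, 17.9, 1.30 and 1.55 RPKM and CLDN18 at 5.06, 4.56, 6.87 and 3.31 RPKM, so that the metastasis with the most FOXA1 was neither the highest nor the lowest in CLDN18.

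The comparison of HNF4G-KO with control tumors asked which genes differed with the HNF4G-KO label. Of 14269 genes tested with limma in a fit of all 14 tumor-bearing mice, 1736 (12.2%) had an adjusted p under 0.05, and 2 of the 10 members were among them, CLDN18 (higher) and CLDN2 (lower), the 2 whose direction was part of the choice. None of the other 8 passed. Their median log2 difference was 0.10, against 0.01 over all genes tested. For 6 of the 10 members no HNF4G-KO tumor lay within the range of control tumors, which was so for 46.4% of all genes tested. Host stroma markers were higher in 2 of the 3 control tumors, at 191, 183 and 52.5 RPKM in control and 48.6 to 69.0 RPKM in HNF4G-KO tumors. With the level of these markers as a covariate, 2 members were called. The share of all genes called in that fit is not given here, so nothing is read from this count.

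Among the other channel-forming claudins, CLDN10 (ENSG00000134873.9, chromosome 13) was at 5.51, 4.68 and 7.88 RPKM in control tumors and at 3.76, 4.04, 2.97 and 3.04 RPKM in HNF4G-KO tumors. All 4 HNF4G-KO tumors lay below all control tumors, in the direction of CLDN2 but by less (log2 difference -0.64, standard error 0.31, limma adjusted p = 0.185). CLDN15 (ENSG00000106404.13, chromosome 7), which makes sodium channels in the gut, overlapped between the groups, at 6.44 to 8.54 RPKM in control and 6.96 to 8.84 RPKM in HNF4G-KO tumors. Its log2 difference was 0.08 with a 95% interval of -0.36 to 0.52.

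Of the sealing claudins, CLDN3 (ENSG00000165215.6) was at 68.1, 68.6 and 114 RPKM in control tumors and at 65.0, 51.8, 50.4 and 64.0 RPKM in HNF4G-KO tumors. The groups did not overlap, but the highest HNF4G-KO tumor was close to the lowest control tumor (log2 difference -0.49, standard error 0.30, adjusted p = 0.287). CLDN4 (ENSG00000189143.9), a paralog on the other strand of chromosome 7 with a gap of 29272 bases between the GENCODE spans of the 2 genes, did not share this order. It was the most abundant member per length in every HNF4G-KO tumor, at 102 to 131 RPKM in control and 94.6 to 127 RPKM in HNF4G-KO tumors, with a log2 difference of 0.05 (95% interval -0.60 to 0.71). CLDN7 (ENSG00000181885.18, chromosome 17) was at 64.6 to 104 against 86.1 to 102 RPKM (0.22, interval -0.31 to 0.75), and CLDN1 (ENSG00000163347.5, chromosome 3), required for the barrier of the skin, at 37.3 to 55.4 against 44.1 to 57.6 RPKM (0.12, interval -0.57 to 0.81). For these 3 genes the groups overlapped, and the intervals hold differences in either direction.

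The 2 less understood members were higher in every HNF4G-KO tumor than in any control tumor. CLDN12 (ENSG00000157224.15, chromosome 7), which lacks the C-terminal motif by which most claudins bind the ZO scaffold proteins, was at 17.3, 16.3 and 17.8 RPKM in control tumors and at 25.1, 39.4, 39.3 and 26.8 RPKM in HNF4G-KO tumors. Its mean was 1.90-fold higher, with a log2 difference of 0.86 (standard error 0.28) and a limma adjusted p of 0.0568. CLDN23 (ENSG00000253958.1, chromosome 8) was at 5.80, 4.41 and 6.13 against 9.55, 8.71, 8.19 and 8.92 RPKM, 1.62-fold higher in the mean (0.62, standard error 0.34, adjusted p = 0.233). Neither passed the threshold, although CLDN12 did with the tumor number as a block (adjusted p = 0.0316) and with libraries shifted to the same median (adjusted p = 0.0497). For these alternatives the share of all genes called is not given here, so nothing is read from them. In a fit of these 2 groups alone, CLDN12, CLDN23 and CLDN10 had adjusted p-values of 0.00600, 0.00525 and 0.0151, and 39.2% of all genes tested were called.

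**Figure D2:**
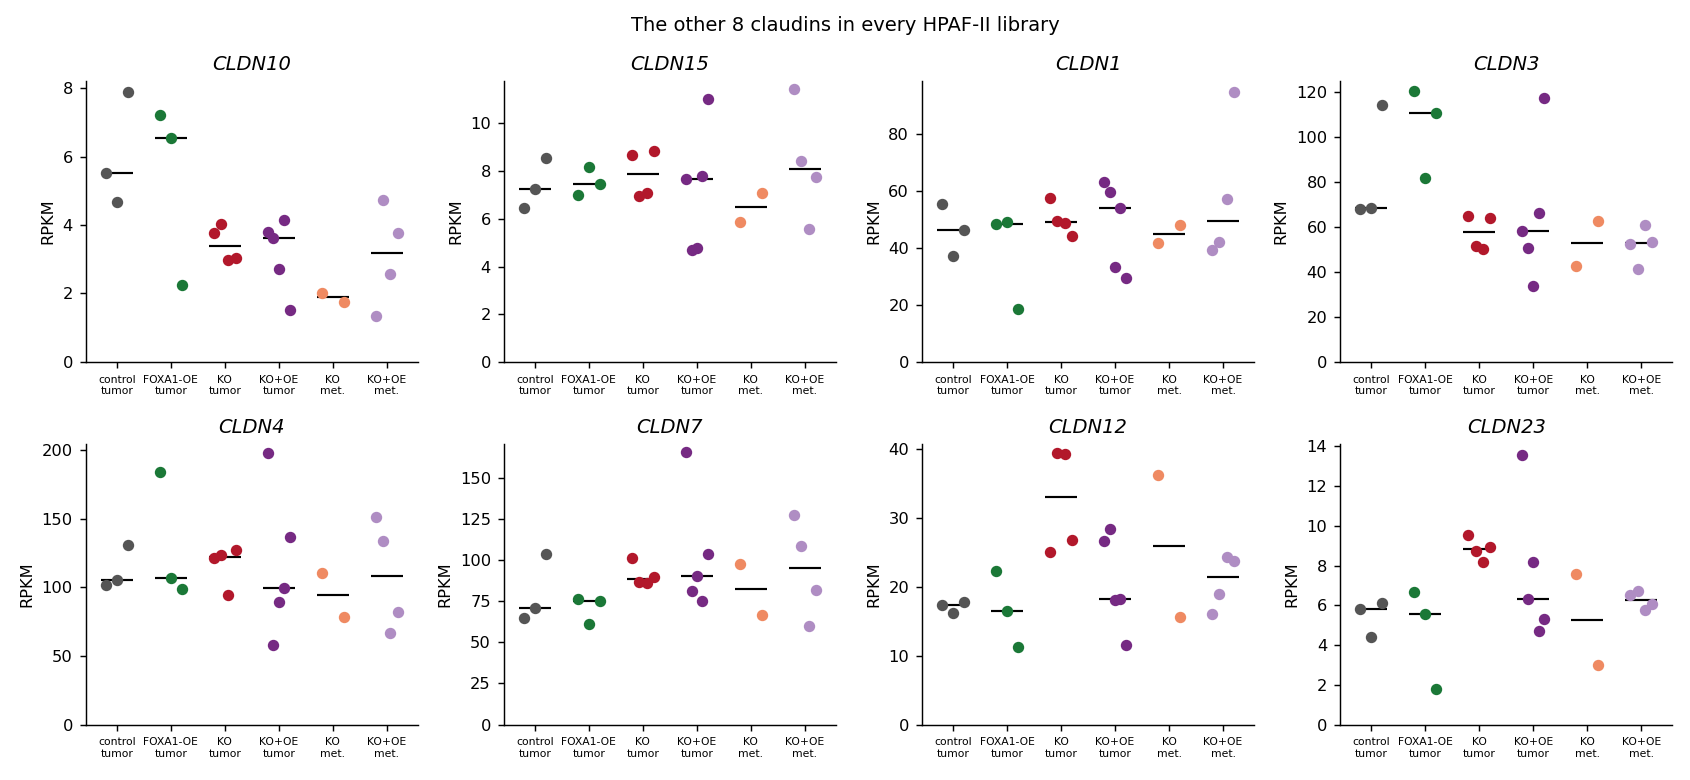
The other 8 members as RPKM on linear axes that start at 0, 1 point per HPAF-II library, with a line at the median of each group (KO, HNF4G-KO; OE, FOXA1-OE; met., metastasis). HNF4G-KO tumors lie apart from control tumors for CLDN3, CLDN10, CLDN12 and CLDN23 and overlap them for CLDN1, CLDN4, CLDN7 and CLDN15.

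Summed over all 24 claudins, the level was 455 to 546 RPKM in control tumors and 362 to 430 RPKM in HNF4G-KO tumors, and the 10 members made up 92.3% to 99.1% of it in every HPAF-II library. The share of CLDN2 was 16.5% to 27.6% of this sum in control tumors and 3.09% to 4.44% in HNF4G-KO tumors. CLDN18 made up 0.00383% to 0.0452% and 1.52% to 3.57%. The gain of CLDN18 was thus smaller than the loss of CLDN2 in RPKM. The sums of the groups did not overlap, but they include CLDN2, whose direction was part of the choice, so nothing is read from this. CLDN4 had a share of 21.9% to 23.9% in control and 26.1% to 32.0% in HNF4G-KO tumors, and CLDN7 of 13.9% to 18.9% and 21.3% to 23.8%, while their own levels overlapped. These shares are not independent of each other.

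**Figure D3:**
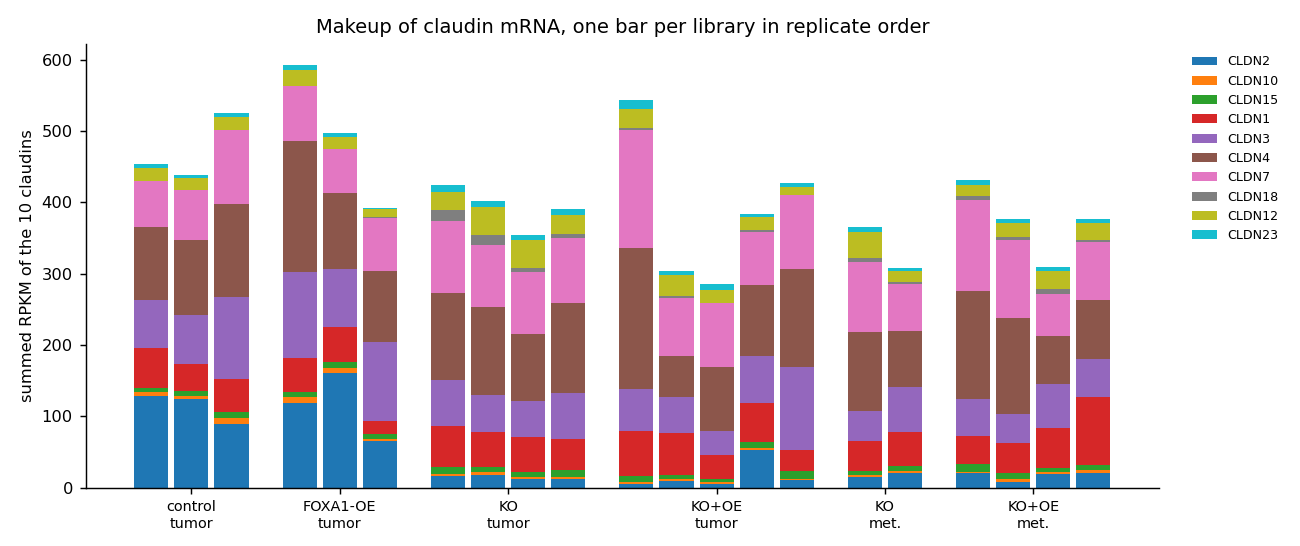
Stacked bars of the RPKM of the 10 members, 1 bar per HPAF-II library, grouped and in replicate order (KO, HNF4G-KO; OE, FOXA1-OE; met., metastasis). CLDN2, at the base of each bar, is a large part of the claudin mRNA in control and FOXA1-OE tumors and a small part in the others, except HNF4G-KO+FOXA1-OE tumor 4.

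FOXA1-OE tumors were compared with control tumors to ask what added FOXA1 does in tumors without the HNF4G-KO label. HNF4G itself was at 0.495 RPKM in FOXA1-OE tumor 3, below all control tumors. No gene passed the threshold in limma, of 14269 tested, and 652 (4.57%) had an unadjusted p under 0.05, among them none of the members. The 10 members differed by -0.36 to 0.34 on the log2 scale, and all of them overlapped between the groups, where 9.25% of all genes tested did not. CLDN2 differed by -0.06 and CLDN18 by 0.04. FOXA1-OE tumor 3, the library with FOXA1 within the range of control tumors, had the lowest level of its group for CLDN1 (18.4 RPKM against 48.5 and 49.0), CLDN10 (2.24 against 7.23 and 6.54), CLDN12 (11.2 against 22.3 and 16.5) and CLDN23 (1.80 against 6.68 and 5.59). It was also the lowest for CLDN2 and for CLDN4 (98.9 RPKM against 184 and 107). It was not the lowest for CLDN3 (111 RPKM), CLDN7 (75.1 RPKM) or CLDN15 (7.47 RPKM), and it was the highest of its group for CLDN18 (0.235 RPKM).

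HNF4G-KO+FOXA1-OE tumors were compared with FOXA1-OE tumors, none of which enter the comparison of HNF4G-KO with control tumors. Of all genes tested, 1122 (7.86%) passed, and of the members only CLDN2, whose direction was part of the choice, was among them. In a fit of these 2 groups alone 0.638% of genes and no member passed. CLDN2 was lower by 3.08 on the log2 scale and CLDN18 higher by 1.15, and neither of these 2 genes overlapped between the groups, taking each mouse as 1 value, nor did 14.6% of all genes tested. For the others, CLDN3 differed by -0.64 (standard error 0.30, adjusted p = 0.217) and CLDN10 by -0.55 (0.31, adjusted p = 0.311). CLDN23 differed by 0.64 (0.34, adjusted p = 0.273), CLDN7 by 0.53 (0.25, adjusted p = 0.211) and CLDN12 by 0.23 (0.28, adjusted p = 0.656), and none of them passed. CLDN1, CLDN4 and CLDN15 differed by 0.37, -0.082 and -0.0020. All 8 overlapped between the groups. Without HNF4G-KO+FOXA1-OE tumor 5, where CLDN3 was at 117 RPKM against 33.6 to 66.2 RPKM in the other 4, CLDN3 differed by -0.91 and passed (adjusted p = 0.0359). Without FOXA1-OE tumor 3, CLDN10 differed by -0.98 and passed (adjusted p = 0.0392). The library left out was in each case the one that stood apart for that gene. The share of all genes called in these fits is not given here, so nothing is read from these passes.

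HNF4G-KO+FOXA1-OE tumors were also compared with HNF4G-KO tumors, to ask what added FOXA1 does in tumors with the HNF4G-KO label. Only 8 genes (0.0561%) passed, all lower with FOXA1-OE, and the member counted among them was CLDN18, whose pattern across these groups was part of the choice. It differed by -1.98 on the log2 scale. It was the only member with no overlap, as seen for 15.2% of all genes tested. With any mouse of these groups left out it was not counted, while the difference ranged from -2.18 to -1.75. Its mean was 1.84 ± 1.01 RPKM (SD, n = 4 mice) against 9.98 ± 4.90 RPKM (SD, n = 4). CLDN12 differed by -0.72 (standard error 0.26, adjusted p = 0.203) and overlapped between the groups, with HNF4G-KO+FOXA1-OE tumors at 26.6, 28.5, 18.1, 18.2 and 11.6 RPKM. CLDN2 differed by -0.25, although its mean of 18.6 RPKM over mice was above the 14.6 RPKM of HNF4G-KO tumors. Without tumor 4 the mean was 7.44 RPKM. The other 7 members differed by -0.28 to 0.19. This comparison shares the HNF4G-KO tumors with the first one, and so the values of CLDN18 and CLDN12 in it are not independent of those given above. A test of whether the FOXA1-OE effect changed with the HNF4G-KO label passed for 5 genes (0.035%) and for no member. This change was -2.02 for CLDN18, -0.20 for CLDN2 and -0.64 for CLDN12 (standard error 0.39, adjusted p = 0.707).

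**Figure D4:**
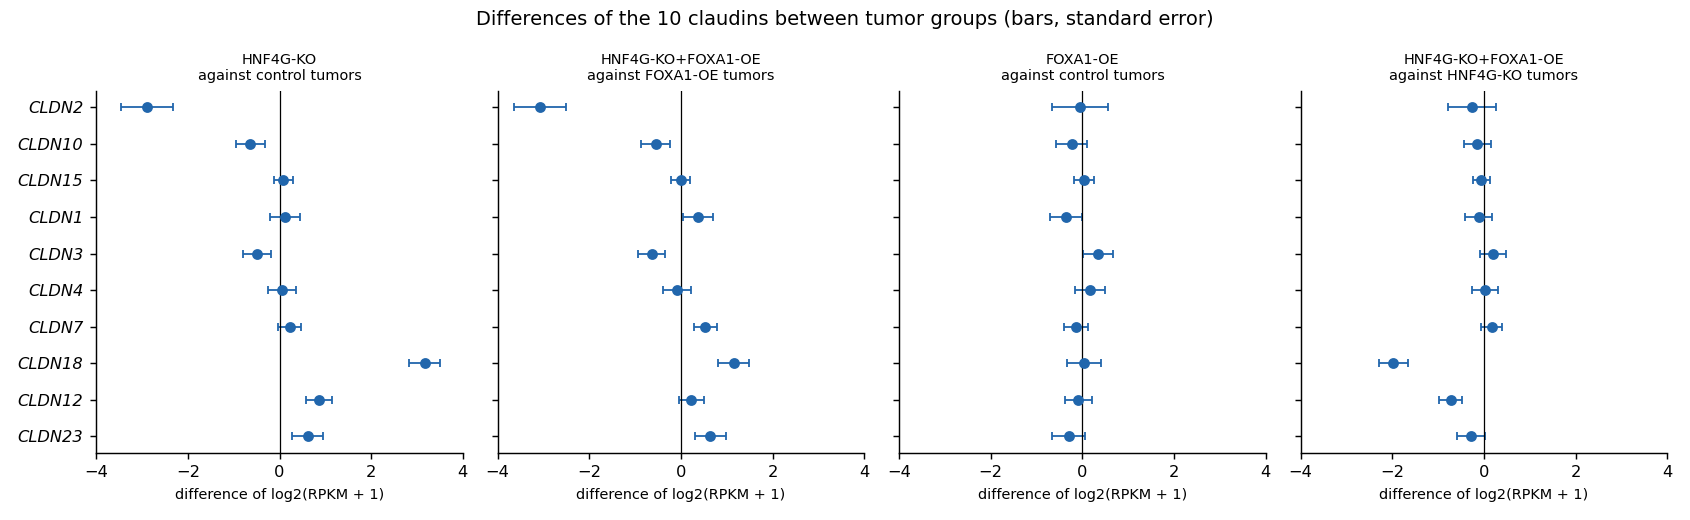
Differences of log2(RPKM + 1) between tumor groups for the 10 members, with bars of 1 standard error from limma. CLDN2 is at -2.88 and -3.08 in the comparisons of tumors labeled HNF4G-KO with tumors without that label (left panels), and near 0 in those that differ by FOXA1-OE (right panels), where CLDN18 is at 0.04 and -1.98.

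Of the 14 other claudins, CLDN9 alone reached 1 RPKM in any HPAF-II library, and the other 13 were at 0.78 RPKM or less. CLDN9 (ENSG00000213937.3, chromosome 16) was at 11.4, 14.8 and 19.9 RPKM in control tumors and at 5.12, 5.07, 6.30 and 5.69 RPKM in HNF4G-KO tumors. It was lower in HNF4G-KO tumors with no overlap (log2 difference -1.29, standard error 0.29, limma adjusted p = 0.0163). In HNF4G-KO+FOXA1-OE against FOXA1-OE tumors it differed by -0.99 (0.29, adjusted p = 0.0550), also with no overlap. Its neighbor CLDN6, 207 bases away on the other strand, stayed at 0.443 RPKM or less.

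Tight junctions hold further membrane proteins and a plaque of scaffold and polarity proteins inside the cell, and the genes of these parts were followed with lists written with earlier results of these data known. In HNF4G-KO against control tumors, none of the 9 tested membrane partners passed, and their median log2 difference was 0.15, against 12.2% called and a median of 0.01 over all genes tested. OCLN, which encodes occludin, was at 3.24 to 4.18 RPKM in control and 6.26 to 7.25 RPKM in HNF4G-KO tumors (0.71, standard error 0.27, adjusted p = 0.0933). Of 20 tested plaque and polarity genes 6 rose and none fell, with a median of 0.22. PALS1, a scaffold of the Crumbs polarity complex, rose by 1.09 (standard error 0.19, adjusted p = 0.00540), from 3.57 to 3.95 RPKM in control tumors to 7.85 to 10.4 RPKM in HNF4G-KO tumors. PRKCZ, an atypical protein kinase C of the PAR polarity complex, rose by 0.91 (adjusted p = 0.0389), TJP3, which encodes the scaffold ZO-3, by 0.75 (adjusted p = 0.0336), and the second atypical kinase PRKCI by 0.64 (adjusted p = 0.0367). AMOTL1 and ARHGEF2 were the other 2. The genes of the best known scaffold, TJP1, and of cingulin, CGN, did not pass (0.17 and 0.53).

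Of the 12 genes for claudin partners and turnover (median 0.18), 1 was called, beside the 12.2% of all genes, GRHL3, a grainyhead transcription factor of epithelial barriers, which rose by 1.17 (adjusted p = 0.0276). EPCAM, a cell adhesion protein that holds CLDN7 at the membrane, differed by -0.03. Of 6 tested genes for ion and water routes (median 0.05), 1 was called, AQP3, a channel for water and glycerol. It was at 15.0 to 21 RPKM in control tumors and at 75.5 to 108 RPKM in HNF4G-KO tumors and rose by 2.38 (standard error 0.30, adjusted p = 0.000715).

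In HNF4G-KO+FOXA1-OE against FOXA1-OE tumors, where 7.86% of all genes passed, none of the 9 membrane partners did. Of the 20 plaque and polarity genes, PRKCZ (1.19, adjusted p = 0.0141) and ARHGEF2 (0.83, adjusted p = 0.00711) rose, and AMOT fell by 0.70 (adjusted p = 0.0353). GRHL3 rose by 1.30 (adjusted p = 0.0201) and SPINT2, an inhibitor of membrane proteases, fell by 0.82 (adjusted p = 0.0422). AQP3 again rose, by 2.28 (adjusted p = 0.000846). AQP5, a water channel of secretory epithelia, fell by 2.24 (standard error 0.44, adjusted p = 0.00780), from 126 to 192 RPKM to 14.7 to 65.4 RPKM. SLC12A2, which loads chloride for secretion, fell by 1.15 (adjusted p = 0.0156). No gene of these 4 lists passed in any of the comparisons of FOXA1-OE with control tumors, HNF4G-KO+FOXA1-OE with HNF4G-KO tumors, or metastases with tumors.

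Over the 14 mice with primary tumors, the protein-coding genes with the pattern most like that of CLDN2 were PLEKHS1 (Pearson r = 0.970), STK32B (0.969) and CX3CL1 (0.968), and those most like CLDN18 were PLCB4 (0.940), PIGN (0.930) and AGR2 (0.929). These values describe 14 mice in 4 groups and carry no test.

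Metastases were compared with primary tumors of the same labels, with both labels in a single fit of 13 values. Each value was the average of the tumors or of the metastases of 1 mouse, whatever the site. The 2 HNF4G-KO metastases were from the peritoneum. The 4 HNF4G-KO+FOXA1-OE metastases were from the spleen (metastasis 1), from peritoneal metastases in fat (2 and 3) and from the peritoneum (4), with 1 and 2 from the same mouse. Of 14099 genes tested, 19 (0.135%) passed, and none of the members did. The members differed by -0.47 to 0.40 on the log2 scale. The largest differences were those of CLDN23 (-0.47, standard error 0.22, adjusted p = 0.608) and CLDN2 (0.40, 0.42, given as a description). CLDN10 differed by -0.32 (0.17, adjusted p = 0.669).

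CLDN2 was at 15.5 and 21.3 RPKM in the HNF4G-KO metastases and at 20.2, 7.47, 19.0 and 20.8 RPKM in the HNF4G-KO+FOXA1-OE metastases, all below the lowest tumor without the HNF4G-KO label. CLDN18 was at 5.99 and 2.71 RPKM in the HNF4G-KO metastases, against 5.61 to 15.3 RPKM in their tumors. In the HNF4G-KO+FOXA1-OE metastases it was at 5.06, 4.56, 6.87 and 3.31 RPKM, all above the 5 tumors of that label. Taking each mouse as 1 value, metastases and tumors did not overlap either, which was so in either direction for 6.53% of genes. Among HNF4G-KO samples, CLDN10 and CLDN23 lay below all tumors in both metastases, and 33% of genes did not overlap there. Taken by label, CLDN18 differed by -0.99 (standard error 0.44) in HNF4G-KO samples and by 1.18 (0.39) in HNF4G-KO+FOXA1-OE samples. It was called in neither, where 0.0426% and 0.00709% of genes passed. The difference between these 2 values was 2.17 (0.59), a contrast added after the data were seen. In that contrast no gene of 14099 was called, and 2267 (16.1%) had an unadjusted p under 0.05. With the mouse as a block the difference for CLDN18 was 1.99. These values reuse the tumors in which the direction of CLDN18 was part of the choice, so they are a description and no p is given. The metastasis and tumor of a mouse gave 12.9 RPKM (tumor 2) and 5.99 RPKM (metastasis 1) in 1 HNF4G-KO mouse, and 6.04 RPKM (tumor 4) and 2.71 RPKM (metastasis 2) in the other. In the HNF4G-KO+FOXA1-OE mouse of tumor 1, CLDN18 was at 2.89 RPKM in the tumor and at 5.06 and 4.56 RPKM in its metastases, and in the mouse of tumor 4 at 2.41 and 3.31 RPKM. The metastasis was thus the lower in both HNF4G-KO mice and the higher in both HNF4G-KO+FOXA1-OE mice. FOXA1 was at the level of tumors without FOXA1-OE in metastases 1, 3 and 4 of the latter group, and its part in this difference was not tested.

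Host stroma markers also differed between the metastases. They summed to 388 RPKM in HNF4G-KO metastasis 2 and to 73.7 RPKM in metastasis 1, and metastasis 2 had the lower CLDN12 (15.6 against 36.3 RPKM), CLDN23 (2.98 against 7.55) and CLDN18, as well as the lower CLDN4, CLDN7 and CLDN10. Its CLDN1, CLDN2, CLDN3 and CLDN15 were the higher of the 2. The part of stroma in these values was not tested.

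In the KPC comparison, the libraries did not follow their labels. For several claudins, tumor line libraries 1 and 2 resembled liver metastasis line libraries 3 and 4, and tumor line libraries 3 and 4 resembled liver metastasis line libraries 1 and 2. Cldn3 was at 0.939, 0.774, 6.71 and 6.38 RPKM in the tumor line and at 6.50, 8.20, 0.317 and 0.294 RPKM in the liver metastasis line. Cldn7 ran opposite to it, at 6.36, 4.72, 1.10 and 1.05 RPKM and at 1.54, 1.26, 4.18 and 3.58 RPKM. Cldn2 was at 43.2, 47.0, 214 and 135 RPKM and at 102, 117, 66.3 and 48.0 RPKM. No library was moved to another group here, and the comparison is given by label and then within library pairs.

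By label, no gene of 12585 passed in limma, 109 (0.866%) had an unadjusted p under 0.05, and the 7 members tested differed by -0.33 to 0.07 with adjusted p-values of 1. The intervals were wide for Cldn3 (-1.99 to 1.62), Cldn2 (-1.35 to 1.03) and Cldn7 (-1.17 to 0.97). The split into library pairs was made after the crossing of these genes had been seen, so values within pairs are given with no p. With libraries 1 and 2 of each line alone, the difference of the liver metastasis from the tumor line was 1.26 for Cldn2, 2.16 for Cldn3 and -1.44 for Cldn7. With libraries 3 and 4 alone it was -1.57, -2.53 and 1.23. Of all genes tested, 25.2% passed with libraries 1 and 2 alone and 0.675% with libraries 3 and 4 alone, in fits of 2 against 2 libraries, and 2537 (20.2%) passed for the difference between the pairs.

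Some levels that held across all 8 KPC libraries differed from those of HPAF-II. Cldn18 was at 86.3 to 104 RPKM in every library. Cldn12 was at 15.8 to 21.1 RPKM, within the 11.2 to 39.4 RPKM of CLDN12 in HPAF-II. Cldn18 thus ranked with Cldn2 among the most abundant members, where CLDN18 was at 15.3 RPKM or less in HPAF-II. Cldn4 and Cldn23 were at 2.03 RPKM or less, and Cldn1, Cldn10 and Cldn15 at 0.593 RPKM or less and were not tested. The most abundant claudin per length was no member but Cldn6, best known from embryonic epithelia, at 150.3 to 249 RPKM. Epithelial markers summed to 2380 to 4627 RPKM and fibroblast markers to at most 4.76 RPKM. These levels come from separate tables and species, and were not tested against each other.

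**Figure D5:**
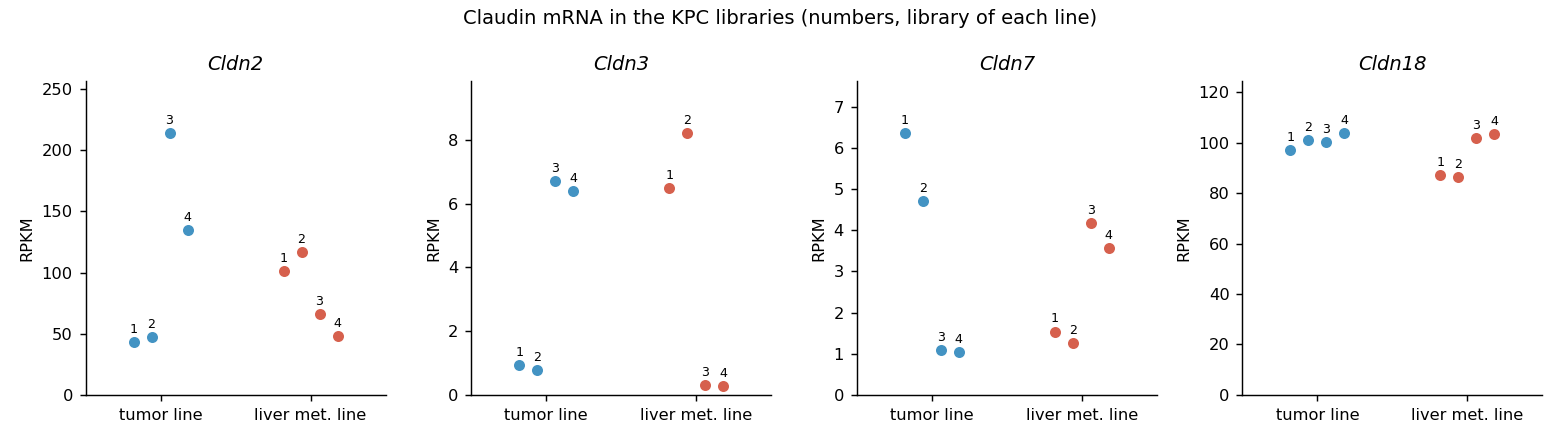
RPKM of Cldn2, Cldn3, Cldn7 and Cldn18 in the 8 KPC libraries, on linear axes that start at 0, with the number of each library of the tumor line and of the liver metastasis (met.) line. Cldn3 is at 6.38 RPKM or more in tumor line libraries 3 and 4 and liver metastasis line libraries 1 and 2 and below 1 RPKM in the others, while Cldn18 is at 86.3 to 104 RPKM in all 8.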

How the data were processed

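RNA-seq values of 29 samples were used, 21 of HPAF-II tumors and metastases and 8 of KPC lines. The authors aligned reads with STAR 2.6.1a and deposited RPKM values in a table per species. The submitters' processing notes also list featureCounts 2.0.4, DESeq2 and the builds GRCh38 and GRCm38, while the methods of the study name GRCh37 for human reads. Coordinates given here are those of GENCODE release 44 (GRCh38), and 58250 of 58719 human and 54409 of 54446 mouse gene IDs were matched without their version. In the KPC table, 12 columns of no sample were left out. The members, gene lists and tests were chosen with earlier results of these data known.

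From the deposited RPKM, log2(RPKM + 1) was fitted by lmFit and eBayes (trend) of limma 3.58.1, under R 4.3.3, keeping genes whose mean RPKM reached 1 in the samples of a fit, with Benjamini-Hochberg adjustment over all genes tested and a threshold of 0.05. Libraries of the same mouse and kind were averaged on the log2 scale. Intervals are 95% intervals from limma. Nothing but the mouse, in the labels, shows that samples are separate, and for KPC libraries nothing does, so that p-values there measure the spread between libraries, which may be technical. The analysis was tested on simulated data. Depth and member reads were recovered from the whole steps of the RPKM values (within 0.05 of a whole read for low genes, 0.0001 for members). Named genes were the 10 members, other claudins reaching 1 RPKM, up to 4 called genes per list and direction, and the 3 genes most like CLDN2 and CLDN18. Where 1 mouse gave both a primary tumor and metastases these are paired by animal, and their deviations from the group means had correlations of -0.026 to 0.30 over 4 pairs. Alternatives were a pseudocount of 0.1, no filter, libraries shifted to the same median, the host stroma list as a covariate, blocks, other sets of samples, and leaving out each mouse or library. Python 3.11.15 with pandas 2.3.3, scipy 1.17.1, numpy 2.4.6 and matplotlib 3.10.9 was used for tables and plots.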

Additional observations from a re-analysis of the deposited data

Results flagged for a closer look

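CLDN2 was at 52.2 RPKM in HNF4G-KO+FOXA1-OE tumor 4, far above the other 4 tumors of its group, which had 4.93 to 10.4 RPKM. In this library the 10 highest genes took 39.6% of all RPKM, the highest share among HPAF-II libraries. CLDN2 was at 7.47 RPKM in HNF4G-KO+FOXA1-OE metastasis 2, below the other 3 metastases of its group, which had 19.0 to 20.8 RPKM. It shares its mouse with metastasis 1, which had 20.2 RPKM. These were the only 2 of 44 groups of 4 or 5 values in which a sample stood this far from the rest, where chance gives about 1 in 20.

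In the KPC lines, the difference between the liver metastasis and the tumor line was not the same in libraries 3 and 4 as in libraries 1 and 2. The 2 differences, taken as libraries 3 and 4 minus libraries 1 and 2, were set apart by -2.83 for Cldn2, by -4.69 for Cldn3 and by 2.67 for Cldn7 on the log2 scale. This contrast was built after the crossing had been seen, so no p is given for these genes, and 20.2% of all genes passed in it. For each of these genes both liver metastasis line libraries lay on one side of both tumor line libraries in the first pair, and on the other side in the second. Which libraries carry the wrong label, if any, was not tested.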

How the results depend on the processing

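Of the members, 2 were called in HNF4G-KO against control tumors, where 12.2% of all genes were. This became 3 with the tumor number as a replicate block or with libraries shifted to the same median (CLDN12 added). It became 5 in a fit of the 2 groups alone, where 39.2% of all genes were called. The counts here can include CLDN2 and CLDN18, whose direction was part of the choice. For the other alternatives the share of all genes is not given here, so nothing is read from their counts. In HNF4G-KO+FOXA1-OE against HNF4G-KO tumors, 1 member and 0.0561% of all genes were called. The 1 call became 0 with a pseudocount of 0.1, no filter, libraries shifted to the same median, both tumors of a mouse kept apart, the tumor number as a block or the 2 groups alone. It was 0 in all fits that left out a mouse, while CLDN18 ranged there from -2.18 to -1.75. In HNF4G-KO+FOXA1-OE against FOXA1-OE tumors, 1 member and 7.86% of all genes were called. The 1 call became 2 with a pseudocount of 0.1, libraries shifted to the same median or the tumor number as a block (CLDN3 added, adjusted p = 0.0412). It became 0 with the 2 groups alone, where 0.638% of all genes were called, and 1 to 3 with a mouse left out. No member was called in FOXA1-OE against control tumors, in the difference of the FOXA1-OE effect or in metastases against tumors under any alternative. The cause of these changes was not tested.

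With host stroma as a covariate, CLDN4 and CLDN7 turned to -0.11 and -0.067 in HNF4G-KO against control tumors. Values near 0 that changed sign when a mouse was left out were CLDN1 (-0.026 to 0.25), CLDN15 (-0.0045 to 0.18) and CLDN4 (-0.015 to 0.16) in that comparison, CLDN12 in HNF4G-KO+FOXA1-OE against FOXA1-OE tumors (-0.016 to 0.45) and CLDN18 in metastases against tumors (-0.14 to 0.32). With a pseudocount of 0.1, CLDN18 moved to 5.41 in HNF4G-KO against control tumors, to -2.68 in HNF4G-KO+FOXA1-OE tumors when set against HNF4G-KO tumors and 2.49 when set against FOXA1-OE tumors, and to -2.92 for the difference of the FOXA1-OE effect, as the pseudocount sets how far low values can spread.

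In KPC lines, 3 members were called with libraries 1 and 2 alone, where 25.2% of all genes were, and 1 with libraries 3 and 4 alone, where 0.675% were, in splits made after the crossing had been seen. Signs turned with libraries 1 and 2 alone for Cldn2 (1.26), Cldn3 (2.16), Cldn4 (0.12), Cldn12 (-0.042) and Cldn23 (-0.23), and with libraries 3 and 4 alone for Cldn7 (1.23) and Cldn18 (0.0077). With a library left out the ranges were -0.49 to 0.27 for Cldn2, -0.68 to 0.27 for Cldn3, -0.38 to 0.23 for Cldn7 and -0.081 to 0.15 for Cldn23.

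Tumor numbers did not pair the tumors, since correlations of their deviations ran from -0.27 to 0.63, nor did the library numbers of the KPC labels (-0.41 to 0.21). With the replicate number as a block, 0 members were called in the KPC lines, and with the mouse as a block 0 in metastases. CLDN18 in tumors without the HNF4G-KO label rests on 4 to 38 reads per library.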
